A study of Mus musculus with 10 samples.

Results

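Where an active histone mark and a Polycomb mark lie in the unmanipulated newborn mouse retina was read from 2 of the 10 samples of the series, the control H3K27ac library and the control H3K27me3 library. Both came from dissected retina of C57BL/6 mice at postnatal day 0 with a wild type genotype label, which is the control of a study of the zinc finger factor Casz1. Chromatin was immunoprecipitated with an antibody to 1 of the marks, and each library is represented by its list of called peaks. A protein-coding gene on chromosomes 1 to 19 was said to carry a mark when a peak of that mark overlapped the 1 kb on either side of its annotated start or end by at least 1 bp. By this rule 20665 genes, and all bases of the same chromosomes, were sorted into acetylated only, trimethylated only, both and neither. Open chromatin was read from the 2 control ATAC-seq libraries, which differ in age, cells and handling: retinal explants of postnatal day 2 mice of the same strain and genotype label were transfected with a GFP plasmid, kept 2 days in culture, and their viable fluorescent cells were sorted. There is 1 library per mark, so no state has a replicate and no test between the marks was possible. Intervals given for shares of peaks or genes are exact Clopper-Pearson 95% intervals and cover counting error only.

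H3K27ac and H3K27me3 sit on the same lysine of histone H3, so a single histone tail cannot carry both. The acetyl group is placed by acetyltransferases such as CBP and marks active promoters and enhancers. The trimethyl group is placed by Polycomb repressive complex PRC2, whose catalytic subunits are EZH1 and EZH2, and marks developmental genes that are silent in a cell. The newborn retina holds dividing progenitors beside newborn rods, and beside ganglion, amacrine, horizontal and cone cells born before birth. In such a mixture, marks found at the same place may sit in different cells or on different alleles, and this cannot be told apart in bulk tissue; nor can fewer cells with a mark be told apart from less of the mark per cell.

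Promoters of 6 genes show what each state looks like at the level of bases. They were chosen after the values were seen, as a pair for acetylated only and for both, and 1 each for trimethylated only and neither. Each is the RefSeq promoter window of GRCm38.p6 (the assembly called mm10), from 250 bases before to 50 after a start, printed on the gene's own strand with every CpG in capitals.
Six6: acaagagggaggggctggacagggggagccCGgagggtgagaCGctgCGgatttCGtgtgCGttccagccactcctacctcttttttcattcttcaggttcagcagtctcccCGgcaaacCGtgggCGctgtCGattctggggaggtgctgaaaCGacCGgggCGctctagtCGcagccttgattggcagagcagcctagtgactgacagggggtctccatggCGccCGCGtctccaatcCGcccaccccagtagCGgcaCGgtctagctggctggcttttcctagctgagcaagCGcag
Crx: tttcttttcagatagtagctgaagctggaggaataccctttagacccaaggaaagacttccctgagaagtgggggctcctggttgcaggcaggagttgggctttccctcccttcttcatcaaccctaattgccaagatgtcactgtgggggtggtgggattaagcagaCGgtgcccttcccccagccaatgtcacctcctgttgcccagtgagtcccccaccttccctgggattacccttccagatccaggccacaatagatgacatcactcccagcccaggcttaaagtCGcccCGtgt
Neurod1: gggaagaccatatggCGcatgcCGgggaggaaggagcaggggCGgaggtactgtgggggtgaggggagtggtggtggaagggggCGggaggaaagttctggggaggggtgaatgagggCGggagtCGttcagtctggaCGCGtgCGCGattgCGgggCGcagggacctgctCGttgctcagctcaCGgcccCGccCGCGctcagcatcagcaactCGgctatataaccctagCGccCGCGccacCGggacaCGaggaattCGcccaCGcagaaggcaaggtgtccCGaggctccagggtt
Otx2: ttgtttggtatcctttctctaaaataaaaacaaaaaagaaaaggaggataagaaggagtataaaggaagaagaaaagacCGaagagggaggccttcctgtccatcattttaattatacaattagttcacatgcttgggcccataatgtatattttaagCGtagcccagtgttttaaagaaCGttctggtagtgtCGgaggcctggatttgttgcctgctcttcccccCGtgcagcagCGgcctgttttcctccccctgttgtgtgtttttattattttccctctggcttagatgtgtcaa
Hoxd10: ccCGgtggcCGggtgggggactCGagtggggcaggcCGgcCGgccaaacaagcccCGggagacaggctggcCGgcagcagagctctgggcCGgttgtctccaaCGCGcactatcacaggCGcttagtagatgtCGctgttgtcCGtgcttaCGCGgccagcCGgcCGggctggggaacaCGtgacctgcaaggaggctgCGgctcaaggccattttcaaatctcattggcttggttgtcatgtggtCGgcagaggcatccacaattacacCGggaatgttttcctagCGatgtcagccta
Olfr1034: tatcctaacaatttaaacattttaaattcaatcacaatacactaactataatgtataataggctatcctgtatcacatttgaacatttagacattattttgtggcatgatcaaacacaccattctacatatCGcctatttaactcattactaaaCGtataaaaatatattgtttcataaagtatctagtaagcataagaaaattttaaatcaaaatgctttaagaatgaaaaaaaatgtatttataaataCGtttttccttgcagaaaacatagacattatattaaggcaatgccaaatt
Six6 (chr12:72939632-72939931, plus strand) and Crx (chr7:15879906-15880205, minus strand) had all 300 bases inside H3K27ac peaks and 0 inside H3K27me3 peaks. Six6, an eye-field homeobox gene, has 20 CpG in this window, and Crx, the homeobox gene of photoreceptors, has 3. Neurod1 (chr2:79456587-79456886, minus strand), a proneural gene, and Otx2 (chr14:48667595-48667894, minus strand), which directs photoreceptor and bipolar fate, had all 300 bases inside peaks of both marks, with 26 CpG and 6 CpG. Hoxd10 (chr2:74691641-74691940, plus strand), a gene of trunk and limb patterning, had all 300 bases in H3K27me3 peaks and none in H3K27ac peaks, with 22 CpG. Olfr1034 (chr2:86046194-86046493, plus strand), an olfactory receptor gene, had no base under either mark and 3 CpG. CpG number therefore did not separate the states within this set: 37.4% of all promoter windows held at least as many CpG as Six6, 32.5% as many as Hoxd10 and 81.4% as many as Crx or Olfr1034.

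Over the 16457 promoter windows outside chromosome 18 that matched a gene, the acetylated-only promoters had a median of 21.0 CpG per window, a GC content of 60.7%, and a CpG ratio of 0.785 (observed over that expected from base content). Promoters with neither mark had a median of 2.00 CpG, a GC content of 44.7% and a ratio of 0.164, against 14.0, 56.7% and 0.597 over all windows. The motif TATAAA, searched on both strands, was found in 6.74% of acetylated-only and 28.3% of neither promoters, beside 13.5% of all. GGGCGG, the core of the GC box, was found in 64.7% and 10.1%, beside 47.3%. The same check is void for the other states, since the table matched 78.1% of trimethylated-only and 79.1% of both genes, under the 80% set for it.

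The peak lists covered a similar share of the genome but were built of different pieces. H3K27ac had 70458 peaks over 54.4 Mb, with a median width of 397 bp and the widest at 28338 bp. H3K27me3 had 69708 peaks over 71.6 Mb, with a median of 314 bp and the widest at 261754 bp. Peaks of at least 5 kb held 42.2% of the H3K27me3 bases (2801 peaks) and 6.74% of the H3K27ac bases (523 peaks). The lists give no peak heights and no read counts, so the depth behind each peak is unknown.

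Of the 2461 Mb spanned, 50.8 Mb (2.07%) were acetylated only, 68.0 Mb (2.76%) trimethylated only, 3.59 Mb (0.146%) under both marks and the other 2338 Mb under neither. The shared bases made up 6.59% of H3K27ac bases and 5.01% of H3K27me3 bases, while H3K27me3 took 2.91% and H3K27ac 2.21% of the span. Shared bases lay near genes: 44.3% were within 1 kb of a gene end, against 26.1% of acetylated-only and 10.3% of trimethylated-only bases, where these windows make up 3.04% of the span. The share inside gene bodies was 70.3% for shared, 65.9% for acetylated-only and 39.2% for trimethylated-only bases, beside 40.0% for the span.

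Counted as peaks, 6104 of 70458 H3K27ac peaks (8.66%, interval 8.46% to 8.87%) met an H3K27me3 peak by at least 1 bp. Of the H3K27me3 peaks, 5843 of 69708 (8.38%, interval 8.18% to 8.59%) met an H3K27ac peak, a share that was 2.74% when at least 50% of the peak had to be covered and 26.2% when the widest peaks were kept to equal bases. Peaks that met the other mark were wider, with medians of 652 bp against 378 bp for H3K27ac and 1835 bp against 294 bp for H3K27me3; a wider peak has more bases in which to meet another.

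Among the 20665 genes, 8998 were acetylated only (43.5%), 2190 trimethylated only (10.6%), 3855 carried both marks (18.7%) and 5622 carried neither (27.2%). Genes with both were 30.0% of the 12853 genes with H3K27ac and 63.8% of the 6045 genes with H3K27me3. Median gene length was 27.9 kb for both, 21.9 kb for acetylated only, 12.7 kb for trimethylated only and 7.48 kb for neither, beside 17.5 kb over all genes. The extent of each mark was compared between genes as the bases under it in the 10 kb centred on each gene end, at most 20002 bp. Where values on this scale stand in brackets, a pair gives H3K27ac first and H3K27me3 second, and a single value is for the mark that names the gene's state. On this scale Six3, an eye-field homeobox gene, had 19567 bp of H3K27ac and 0 bp of H3K27me3, Hoxd10 had 0 bp and 20002 bp, and Otx2 had 9861 bp and 20002 bp. Casz1 itself (chromosome 4, 148804366 to 148954893, plus strand) carried both marks, with 9424 bp of H3K27ac and 1621 bp of H3K27me3. The 4 H3K27me3 peaks of Casz1 lay within 5 kb of its start, between 148805267 and 148807597, and all of these 1621 bp were also acetylated. Only the first of them (148805267 to 148805760) reached the 1 kb window at the start, near the outer edge of that window. It does not reach a 500 bp window, so the trimethylated part of the Casz1 state depends on the window chosen.

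**Figure D1:**
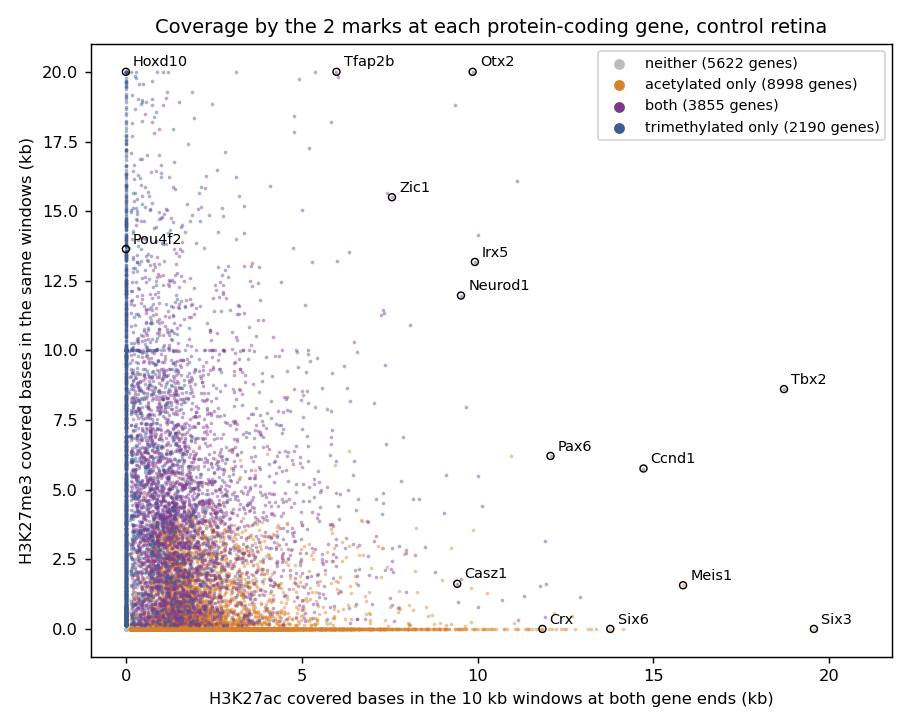
Each point is 1 protein-coding gene; the x axis gives kilobases under H3K27ac and the y axis kilobases under H3K27me3 in the 10 kb windows at both gene ends, coloured by state. Six3 lies far along the H3K27ac axis (19567 bp), Hoxd10 at the top of the H3K27me3 axis (20002 bp), and Otx2, Neurod1, Irx5, Zic1 and Tbx2 lie away from both axes.

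The acetylated-only state held the machinery that all cells use. All 32 splicing snRNP genes and all 11 chaperonin genes were acetylated only, beside 43.5% of all genes. So were 43 of 47 respiratory complex I subunits and assembly factors, 71 of 80 cytosolic ribosomal protein genes, 67 of 78 mitochondrial ribosomal protein genes and 60 of 63 replication-dependent histone genes. H2bc6, a histone H2B gene, had 8711 bp of H3K27ac and 485 bp of H3K27me3, and H3c11, a histone H3 gene, had 8575 bp and 0 bp. The histone exceptions were H1f6, H2ac1 and H2bc1, all with neither mark and all known from the testis. Ribosomal and histone genes have near-identical copies, and no source used here says how reads shared between copies were placed.

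Of 30 cell cycle genes, 29 were acetylated only, beside 43.5% of all genes. E2f1, a transcription factor of S-phase entry, had 10282 bp of H3K27ac and 0 bp of H3K27me3, and Cdc6, which loads the replicative helicase, had 7999 bp and 0 bp. The exception was Rrm2, a ribonucleotide reductase subunit, with both marks (3224 bp and 1589 bp). Of 26 housekeeping genes, 23 were acetylated only, beside the same 43.5%, led by Gapdh (7604 bp) and Actb (5579 bp). Psmb4, a proteasome subunit, carried both, Reep5 was trimethylated only (1881 bp of H3K27me3, with 1180 bp of H3K27ac beyond 1 kb from its ends), and Ywhaz carried neither. Ywhaz had H3K27ac over 10.1% of its body, so its outermost annotated ends are not where its peaks lie.

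Chromatin regulators followed the same direction. The NuRD complex, a nucleosome remodeler with histone deacetylases, had 13 of 14 genes acetylated only, led by Chd4 (7023 bp) and Chd3 (6825 bp), and Chd5, its neuronal remodeler, carried both (3569 bp and 6173 bp). Of 31 Polycomb genes, 20 were acetylated only, 10 carried both and 1, Cbx7, carried neither, beside 43.5%, 18.7% and 27.2% of all genes. The PRC2 core genes Ezh2 (3771 bp), Suz12 (2286 bp) and Eed (2105 bp) had H3K27ac and 0 bp of H3K27me3. Bmi1 had 17278 bp of H3K27me3 beside 5203 bp of H3K27ac, and Cbx8 had 10909 bp beside 1532 bp; both encode subunits of PRC1, the complex that binds the trimethyl mark.

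By covered bases, the 10 leading acetylated-only genes were Six3, Meis1, Msh5, Six6, Crb2, Nuak2, Gnai2, Iffo1, Bccip and Rara, with 12521 bp (Rara) to 19567 bp (Six3) of H3K27ac. Six3, Six6 and Meis1 are homeobox genes of the early eye, and Crb2 is an apical polarity gene of neuroepithelium. Six3 lay under 1 unbroken H3K27ac peak of 24408 bp (chr17:85605495-85629902) that took in the whole gene. H3K27ac over Six6 was a single peak of 13776 bp (chr12:72935760-72949535). Of the Zfp zinc finger genes, 286 of 386 were acetylated only, beside 43.5% of all genes.

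Genes of the retinal progenitor, neurogenic and Müller glia lists split between acetylated only and both, with no trimethylated-only gene among them. All 25 retinal progenitor genes carried H3K27ac: 10 acetylated only and 15 with both marks. All 20 genes of neurogenic progenitors, the cells about to leave the cycle, did too, with 8 acetylated only and 12 with both. Of 29 Müller glia genes, 12 were acetylated only, 14 carried both and 3 neither; 8 of them are also on the progenitor list, since Müller glia keep progenitor factors. Pooled, these lists hold 66 genes, of which 34 (51.5%) carried both marks, 33 of them on shared bases, and 0 were trimethylated only, beside 18.7% and 10.6% of all genes.

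Among progenitor genes with both marks, Zic1 had 7567 bp of H3K27ac and 15500 bp of H3K27me3, Nr2e1 7376 bp and 9465 bp, Sox2 8069 bp and 10913 bp, and Meis2 10001 bp and 14128 bp. Nr2e1 is an orphan nuclear receptor of neural progenitors, and Sox2 a factor that keeps them undifferentiated. The homeobox regulators Pax6 (12076 bp and 6210 bp) and Rax (11942 bp and 1626 bp) were named after their values were seen and also carried both. Ccnd1, the cyclin that drives progenitor division, had 14720 bp and 5760 bp. At neurogenic genes, Otx2 and Neurod1 led, followed by the Notch ligand Dll4 (6495 bp and 10302 bp) and the bHLH gene Olig2 (3590 bp and 13128 bp). Acetylated-only neurogenic genes included Btg2 (10006 bp), an antiproliferative gene, Hes6 (9070 bp), the Notch modifier Mfng (8577 bp) and Sox4 (8105 bp), all with 0 bp of H3K27me3. Müller genes with acetylation alone included Dkk3 (11662 bp), the glutamate transporter Slc1a3 (9098 bp), the Notch effector Hes5 (8605 bp) and Id1 (7919 bp). The 3 Müller genes with neither mark were Abca8a, Aqp4 and Tgfb2; Aqp4 is the water channel of mature glia.

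Genes of the inner retinal neurons were more often under the Polycomb mark. The ganglion, amacrine, horizontal and bipolar lists together hold 80 genes, of which 10 were acetylated only, 25 trimethylated only (31.2%), 41 carried both (51.2%) and 4 neither. For these and the single lists below, the shares of all genes are 43.5%, 10.6%, 18.7% and 27.2%. H3K27ac was at 17 of 24 ganglion, 16 of 25 amacrine, 10 of 14 horizontal and 13 of 23 bipolar genes. Beside 62.2% of all genes, H3K27ac itself was about as frequent here as elsewhere. Median coverage in this pool was 1089 bp of H3K27ac and 8372 bp of H3K27me3, against 6062 bp and 1558 bp in the progenitor, neurogenic and Müller pool. The pools share genes such as Pax6 and Otx2, and the difference was not tested.

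Ganglion cell genes numbered 24, of which 13 carried both, 6 were trimethylated only, 4 acetylated only and 1 neither. Pou4f2, the POU factor that sets up ganglion cells, had 0 bp of H3K27ac and 13639 bp of H3K27me3. Pou4f3 (0 bp and 11497 bp), Irx2 (284 bp and 19767 bp) and Tbr1 (2148 bp and 15853 bp) were also trimethylated only. Pou4f1, their paralogue, had 865 bp of H3K27ac, all of it within 16444 bp of H3K27me3, and carried both. The cytoskeletal genes Stmn2 (2456 bp and 5219 bp) and Nefm (1796 bp and 11201 bp) and the RNA-binding protein gene Rbpms2 (3396 bp and 5660 bp) carried both. Klf7 (3602 bp) and Gap43 (2356 bp), an axon growth gene, were acetylated only, and the melanopsin gene Opn4 had neither mark.

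Amacrine genes numbered 25: 14 with both, 9 trimethylated only and 2 acetylated only. Barhl2 (7413 bp and 15644 bp), Meis2, Pax6 and Tfap2b (5989 bp and 20002 bp), all transcription factors of amacrine cells, led the genes with both. Tfap2c (486 bp and 19560 bp), Dlx1 (548 bp and 15869 bp) and Slc18a3 (0 bp and 12414 bp) led the trimethylated ones; Slc18a3 is the vesicular acetylcholine transporter of starburst cells. Gad2, an enzyme of GABA synthesis, was acetylated only at its ends (6722 bp, with 3866 bp of H3K27me3 farther out), as was the glycine transporter gene Slc6a9 (3616 bp). Of 14 horizontal cell genes, 8 carried both, 4 were trimethylated only and 2 acetylated only. Onecut1 (2249 bp and 10001 bp) and Onecut2 (3227 bp and 9699 bp) carried both, while their paralogue Onecut3 (670 bp and 12554 bp), Lhx1 (986 bp and 16652 bp), the connexin gene Gja10 and the calcium buffer gene Calb1 were trimethylated only. Septin4 and the anion exchanger gene Slc4a3 were the acetylated-only pair.

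Bipolar cells are born mostly after birth. Of 23 bipolar genes, 11 carried both marks, 7 were trimethylated only, 3 neither and 2 acetylated only. Otx2, Irx5 (9925 bp and 13176 bp) and Bhlhe22 (5174 bp and 6551 bp) were among the genes with both. Bhlhe23 (12520 bp), Vsx1 (11324 bp), the ON bipolar glutamate receptor gene Grm6 (10665 bp) and Scgn (8300 bp) had H3K27me3 and 0 bp of H3K27ac. Gpr179 (4650 bp) and Lrit3 (1538 bp), which belong to the ON bipolar signalling complex, were acetylated only, and Cabp5, Pcp2 and Sebox carried neither at their ends.

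Photoreceptor genes were found in every state. The 34 rod and cone genes were 35.3% acetylated only, 20.6% trimethylated only, 17.6% both and 26.5% neither, beside 43.5%, 10.6%, 18.7% and 27.2% of all genes, so the last pair of shares lies near that of all genes. Of 10 regulators, 4 were acetylated only (among them Crx at 11846 bp, Neurod4 at 7254 bp and Rorb at 6450 bp), 4 carried both (Otx2, Neurod1, Onecut1 and Mef2d) and 2 were trimethylated only. That last pair was Neurod2 (204 bp and 14231 bp) and Prdm1 (768 bp and 7418 bp), which holds back bipolar fate. Of 20 rod genes, 7 were acetylated only, 6 neither, 4 trimethylated only and 3 both. Gnb1, a transducin subunit, had 5278 bp of H3K27ac and 0 bp of H3K27me3, and Prph2 (3108 bp), of the outer segment discs, and Samd7 (3080 bp) also had H3K27ac alone. Nrl, the factor that commits cells to the rod fate, carried both (7576 bp and 2450 bp). Guca1b (6701 bp), Gnat1 (2561 bp, with 1975 bp of H3K27ac farther out), Esrrb (1883 bp) and Rcvrn (278 bp) were trimethylated only. Cnga1, Gngt1, Nr2e3 and Pde6a were among the genes with neither, although H3K27ac covered 52.5% of the Nr2e3 body. Of 14 cone genes, 5 were acetylated only (led by Gnb3 at 5830 bp and Gnat2 at 2718 bp), 3 carried both, 3 were trimethylated only and 3 neither. Rxrg (2153 bp and 4227 bp) and Sall3 (1076 bp and 10190 bp), regulators of cone identity, carried both, and the cone channel gene Cnga3 (4082 bp) was trimethylated only.

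**Figure D2:**
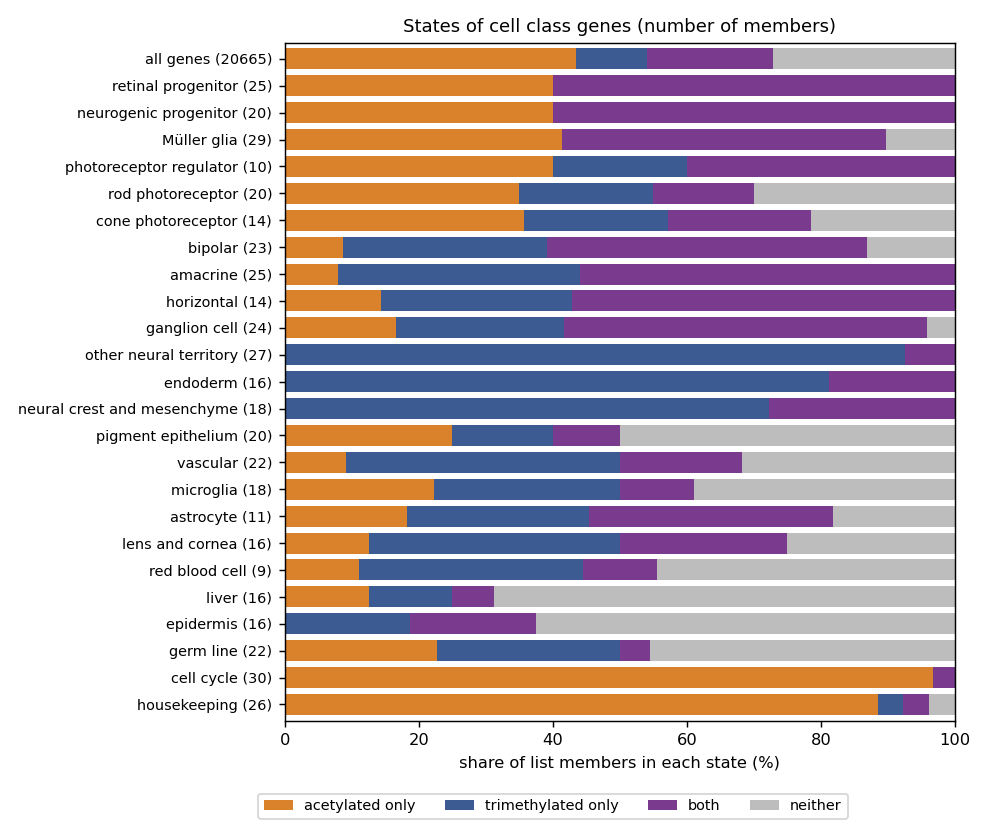
Horizontal bars give the share of each cell class list (number of genes in brackets) in each state, in percent, with all 20665 genes on top. Retinal progenitor and neurogenic lists consist of acetylated-only and both genes (10 and 15 of 25, and 8 and 12 of 20), the list of other neural territories is 92.6% trimethylated only, and the liver and epidermis lists are mostly neither (68.8% and 62.5%).

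Temporal identity factors set which cell types progenitors make at a given age. Their counts stand beside 43.5% acetylated only, 10.6% trimethylated only and 18.7% both among all genes. Of 12 early factors, 6 carried both, 4 were acetylated only and 2 trimethylated only: Ikzf1 (253 bp and 7743 bp), an Ikaros factor, and Onecut3. The related Ikzf4 was acetylated only (3619 bp). Of 10 late factors, 7 carried both, Casz1 among them, and 3 were acetylated only (Nfia at 4747 bp, Nfic at 3934 bp and Zbtb20 at 2807 bp). Nfix had 18919 bp of H3K27me3 beside 1508 bp of H3K27ac, Nfib 3996 bp beside 5448 bp, and Zfp36l1 4672 bp beside 8348 bp. Dorsal and ventral retina use different identity genes, and the libraries do not separate them. Tbx2 (18716 bp and 8611 bp) and Tbx3 (9353 bp and 18827 bp) on the dorsal side, and Vax2 (5294 bp and 13157 bp), Vax1 (4102 bp and 15918 bp), Cyp26a1 (3901 bp and 11077 bp) and Aldh1a3 (3906 bp and 6515 bp) on the ventral or central side, carried both. Tbx5 (10001 bp) and Bmp4 (16183 bp), dorsal genes, and Pax2 (20002 bp), the gene of the optic stalk, were trimethylated only. The state of Tbx5 describes its outermost annotated ends, where the windows held no H3K27ac. Farther from these ends, Tbx5 had H3K27ac peaks of 1795 bp, 314 bp, 2749 bp, 1139 bp and 616 bp. All but the last lay inside an H3K27me3 peak of 22953 bp.

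Signalling pathways were divided by role. In the Notch pathway the ligand genes Dll1 (10121 bp and 4401 bp), Dll3 (3880 bp and 8888 bp), Dll4, Jag1 (1019 bp and 3800 bp) and Jag2 (1617 bp and 5971 bp) carried both. Of the receptors, Notch1 (5865 bp and 2423 bp) carried both and Notch2, Notch3 and Notch4 were acetylated only. The coactivators Maml1, Maml2 and Maml3 were acetylated only, the effector Hes1 (7306 bp and 4897 bp) carried both and Hes5 did not. Rbpj, the DNA-binding subunit, carried neither at its ends but had H3K27ac over 3.59% of its body, and Dlk1, a non-canonical ligand, was trimethylated only (13949 bp). In the Hedgehog pathway the ligand genes Shh (166 bp and 19165 bp) and Ihh (0 bp and 16358 bp) were trimethylated only. The signal transducer Smo (2504 bp), the inhibitor Sufu (3889 bp) and the co-receptor Cdon (6672 bp) were acetylated only. Gli1, Gli2, Gli3, the receptor gene Ptch1 and the co-receptor gene Boc carried both, and so did the ligand gene Dhh. The Wnt ligands split into 12 trimethylated only and 7 with both of 19, whereas 8 of 10 Frizzled receptor genes carried both and Fzd5 (9440 bp) and Fzd3 (3751 bp) were acetylated only. Of all genes 10.6% were trimethylated only and 18.7% carried both.

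At most genes with both marks the marks shared at least some bases. The marks shared at least 1 bp near a gene end in 2864 of 3855 genes (74.3%), lay at the same end without a shared base in 624 (16.2%), and lay at different ends in 367 (9.52%). Strand was available for 2954 of the 3855 genes (76.6%), and in 2395 of these 2954 (81.1%) both marks were at the 5′ end alone. In 200 genes acetylation was at the 5′ end and trimethylation at the 3′ end, and in 87 it was the other way round. Where the marks shared bases, median coverage was 1395 bp of H3K27ac and 4292 bp of H3K27me3. Over the genome, shared stretches had a median of 345 bp (6822 stretches); 849 reached 1 kb and 154 reached 2 kb.

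The longest stretch under both marks was 10767 bp at Tfap2a (chr13:40723187-40733953), a gene of amacrine and horizontal cells and of neural crest. Next came 9581 bp at chr6:30169309-30178889, outside any protein-coding gene and 15851 bp from Nrf1, and 8936 bp over the whole of Neurod1 (chr2:79452039-79460974). Stretches at Gad1 (7855 bp), Otx2 (7481 bp), Nr2e1 (7371 bp), Meis2 (6610 bp), Inhbb (6345 bp) and Barhl2 (6333 bp) followed, with 1 of 6688 bp lying 62983 bp from Kif13b. Neurod1, Otx2, Nr2e1, Meis2 and Barhl2 encode transcription factors of neural cells, Gad1 an enzyme of GABA synthesis and Inhbb a subunit of activins and inhibins. At Otx2, a single H3K27me3 peak of 31432 bp (chr14:48649965-48681396) enclosed the gene together with its 8 H3K27ac peaks. Tbx2 showed another arrangement: 1 H3K27ac peak of 18791 bp with 10 H3K27me3 peaks of 164 bp to 2355 bp inside it.

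**Figure D3:**
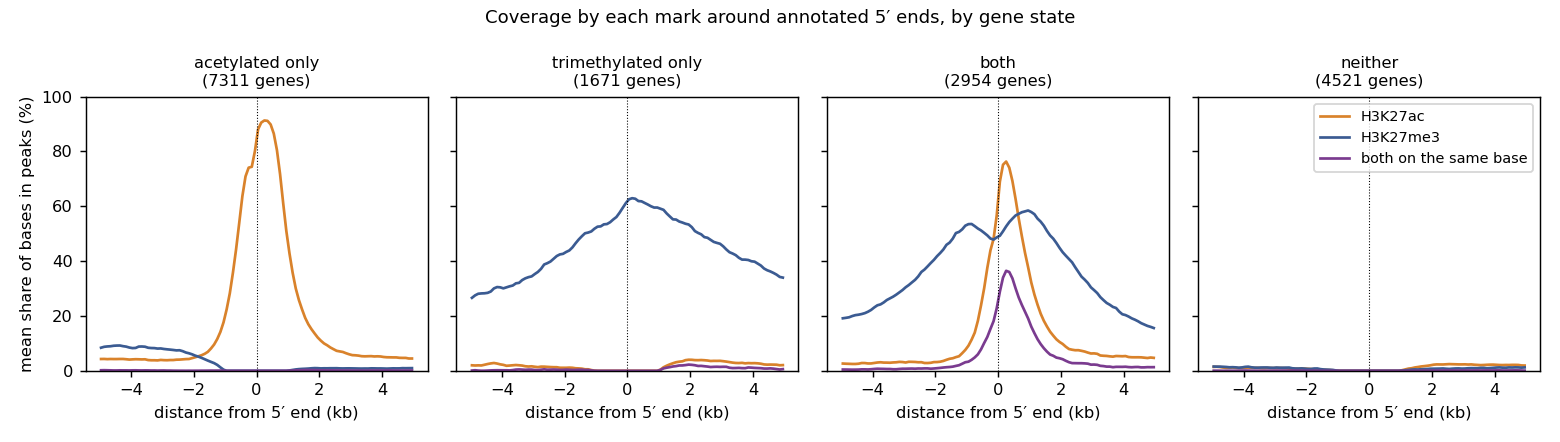
Lines give the mean share of bases in peaks, in percent, in 100 bp bins from 5 kb upstream to 5 kb downstream of the annotated 5′ end, for the genes of each state with a known strand. At genes with both marks H3K27ac peaks at 200 to 300 bp downstream (76.3%). There H3K27me3 dips at the start (48.7%) between shoulders 1 kb upstream (53.5%) and 900 to 1000 bp downstream (58.5%). The shoulders lie at the edges of the 1 kb window that sorted the genes, and the part of the sorting in the dip was not tested.

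Around 5′ ends the marks took different shapes. Strand was known for 81.3% of acetylated-only, 76.3% of trimethylated-only, 76.6% of both and 80.4% of neither genes. For trimethylated-only and both genes this is under the 80% set for promoter composition, so their profiles describe only part of each state. Within 1 kb of an end an absent mark is at 0% by the rule. A present mark counts even where it only touches the edge of that window, so the rule can also shape its coverage within 1 kb. A dip between the window edges can therefore come from the sorting, and this was not tested. At acetylated-only genes H3K27ac peaked at 91.3% of bases 200 to 300 bp downstream and fell to 11.0% at 2 kb. H3K27me3 at trimethylated-only genes was a broad dome, 63.0% at 100 to 200 bp downstream and still 26.6% and 34.0% at 5 kb upstream and downstream. Genes with both marks had an H3K27ac peak of 76.3% in the bin from 200 to 300 bp. Their H3K27me3 stood at 48.7% just upstream of the start, 53.5% at 1 kb upstream and 58.5% at 900 to 1000 bp downstream. Bases under both marks peaked at 36.5%. At 5 kb upstream of acetylated-only genes H3K27me3 covered 8.42% of bases, against 0.970% at 5 kb downstream.

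The trimethylated-only state held the master genes of other body parts. All 39 Hox genes on chromosomes 2, 6, 11 and 15 were trimethylated only, beside 10.6% of all genes, with 11784 bp to 20002 bp of H3K27me3 and 0 bp of H3K27ac in 37 of them. H3K27me3 covered the Hoxa cluster (106 kb), the Hoxc cluster (116 kb) and the Hoxd cluster (96.9 kb) without a gap and left 243 bp of the 174 kb Hoxb cluster uncovered. Hox genes specify position along the trunk and limbs. All 5 GATA genes, 13 of 14 Nkx genes and 8 of 9 Pax genes were trimethylated only, and the remaining Pax gene, the eye regulator Pax6, carried both. Gata2 had 18930 bp of H3K27me3 and Pax1 19598 bp. Of 12 LIM homeobox genes, 8 were trimethylated only, among them Lmx1b (19593 bp) and Lhx5 (19105 bp), and 4 carried both: Lhx2 (1803 bp and 8868 bp), Isl1 (892 bp and 20002 bp), Lhx9 and Lhx4. Both sets hold genes on the retinal lists, such as Lhx1 (trimethylated only) and Lhx2.

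Lists for other territories gave the same division. Of 27 regulators of other neural territories, 25 were trimethylated only with 0 bp of H3K27ac, among them Emx1 of the cortex (19194 bp), Dmbx1 of the midbrain (18655 bp) and Nkx2-2 of the ventral neural tube (18459 bp). The other 2, Phox2a (449 bp and 10348 bp) among them, carried both. Endoderm regulators were trimethylated only in 13 of 16 cases, led by Foxa1 (17402 bp) and Cdx2 (16350 bp), with Prox1, Eomes and Foxa3 carrying both. Neural crest and mesenchyme regulators were so in 13 of 18, Msx2 (15900 bp) among them. Pooled over 61 genes, 51 (83.6%) were trimethylated only, 10 (16.4%) carried both, and none was acetylated only or unmarked. Among all genes 10.6% were trimethylated only and 18.7% carried both, the latter near the pooled share.

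Members of the same family could fall in different states. The family counts below stand beside 43.5% acetylated only, 10.6% trimethylated only, 18.7% both and 27.2% neither among all genes. In the sine oculis homeobox family, Six3 and Six6 were acetylated only, Six2 (0 bp and 15405 bp), a gene of the kidney, was trimethylated only, and Six4 and Six5 carried both. Sox genes split into 7 trimethylated only (Sox17 at 15847 bp and Sox7 at 15025 bp, endothelial and endodermal genes, and Sox1 and Sox21 among them), 6 with both and 5 acetylated only, led by Sox4 and Sox11 (6359 bp). In the T-box family 9 of 16 were trimethylated only, 6 carried both and Tbx6 alone was acetylated only (4553 bp). Irx1, Irx2 and Irx4 were trimethylated only, and Irx3, Irx5 and Irx6 carried both. Of 41 forkhead genes, 16 were trimethylated only, all with 0 bp of H3K27ac, 14 carried both, 8 were acetylated only and 3 carried neither. The proneural bHLH genes numbered 23, with 11 in both, 9 trimethylated only (Neurod2, Bhlhe23, Olig1 and Olig3 leading), 2 acetylated only, Neurod4 among them, and Ascl3 in neither.

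Of 8 CDK inhibitor genes, which stop the cell cycle, 5 carried H3K27me3 and 6 carried H3K27ac, beside 29.3% and 62.2% of all genes. Cdkn2b (0 bp and 14744 bp) and Cdkn1a (2258 bp and 4360 bp) were trimethylated only. The H3K27ac of Cdkn1a lay beyond 1 kb from its ends, with 1793 bp of it also under H3K27me3. Cdkn2a (1184 bp and 20002 bp), Cdkn2c (3091 bp and 9907 bp) and Cdkn1c (898 bp and 10054 bp) carried both. Cdkn1b, which acts as progenitors leave the cycle, had 9257 bp of H3K27ac and 192 bp of H3K27me3 and was acetylated only, with Cdkn2d and Cdkn3. Imprinted genes, which are active on 1 parental copy, gave 11 acetylated only (45.8%), 7 trimethylated only (29.2%), 4 both (16.7%) and 2 neither (8.33%) of 24, of which the acetylated-only and both shares lie near those of all genes (43.5% and 18.7%). Plagl1 (6921 bp) and Mest (5637 bp) were acetylated only, Kcnq1 (955 bp and 17009 bp) and Igf2 (10609 bp) trimethylated only, and Grb10 (4843 bp and 10001 bp), whose copies differ in use between tissues, carried both.

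Genes of neuronal signalling were often among those with both marks. Voltage-gated calcium channel genes carried both in 17 of 25 cases, glutamate receptor genes in 16 of 25, potassium channel genes in 47 of 91 and genes of netrins and their receptors in 8 of 11, beside 18.7% of all genes. Grik5, a kainate receptor subunit, had 9682 bp of H3K27ac and 7965 bp of H3K27me3, and Cacna1g, a T-type calcium channel, 7394 bp and 6657 bp. Median gene length was 319 kb for the glutamate receptors, 111 kb for the calcium channels, 105 kb for netrins and their receptors and 36.2 kb for the potassium channels. Over all genes it was 17.5 kb. Guidance receptors and ligands were divided: 8 of 14 Eph receptor genes carried both, Epha8 first (7259 bp and 11273 bp). By contrast, 5 of 7 ephrin genes were acetylated only, beside 43.5% of all genes. Semaphorins were 10 acetylated only and 10 with both. Clustered protocadherins gave 23 of 57 with both marks, and their gene bodies share exons and overlap, so their counts are not independent.

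**Figure D4:**
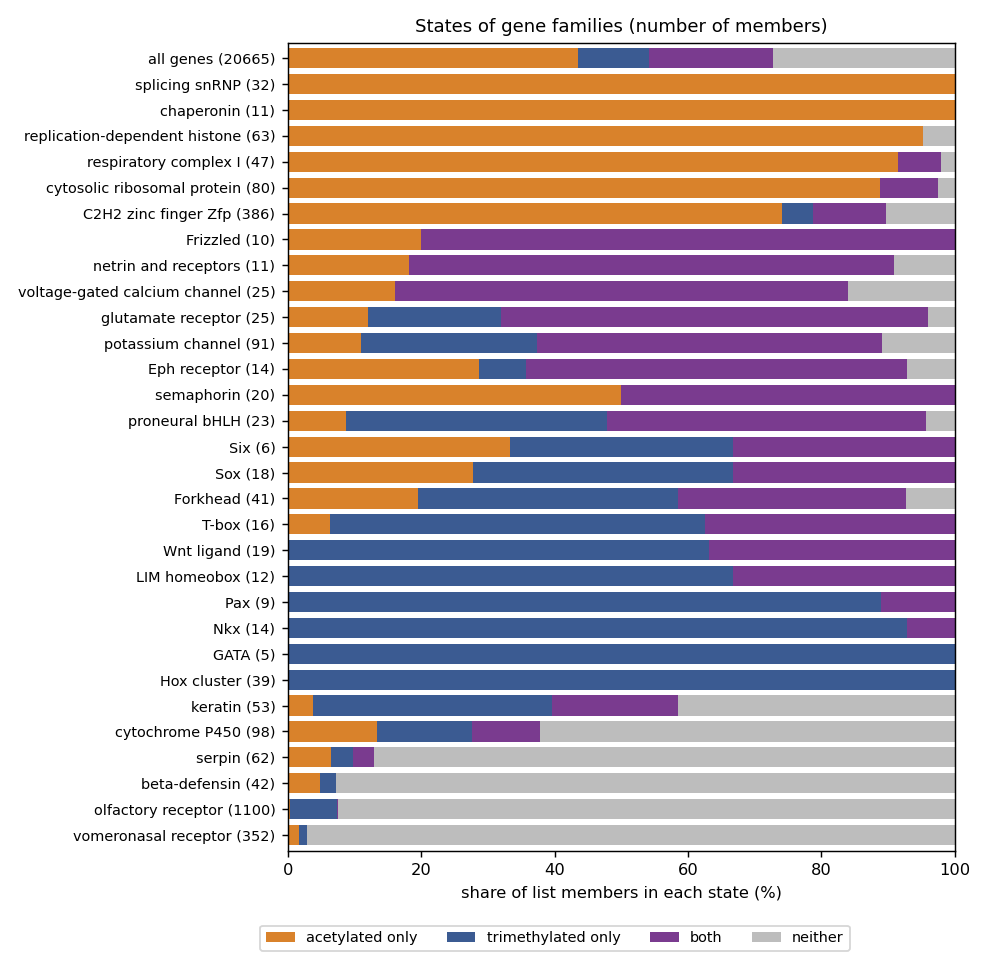
Horizontal bars give the share of each gene family (number of genes in brackets) in each state, in percent, with all 20665 genes on top. Splicing and chaperonin genes are all acetylated only, Hox and GATA genes all trimethylated only, calcium channel genes are 68.0% both, and olfactory receptor genes 92.5% neither.

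Families of sensory receptors and several families of other organs were mostly unmarked. Olfactory receptor genes were unmarked in 1018 of 1100 cases and vomeronasal receptor genes in 342 of 352, beside 27.2% of all genes. Serpins (54 of 62), beta-defensins (39 of 42), taste receptors (35 of 38), keratin-associated proteins (38 of 56) and cytochromes P450 (61 of 98) followed. These families have near-identical copies, where placing of reads may limit what can be called. Olfactory receptor genes were trimethylated only in 78 cases (7.09%), led by Olfr63 (10051 bp), beside 10.6% of all genes. Cytochromes of retinoic acid breakdown were marked but not alike: Cyp26a1 and Cyp26c1 (2822 bp and 17114 bp) carried both, and Cyp26b1 was acetylated only. Among other cytochromes, Cyp1b1 (3231 bp and 11589 bp) also carried both. Of the 5622 unmarked genes, 905 (16.1%) had an H3K27ac peak and 661 (11.8%) an H3K27me3 peak inside the body, and 4406 had no peak in body or end windows.

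Markers of other cell types that dissected retina could hold were checked by how many carried H3K27ac. It was found at 7 of 20 pigment epithelium genes, 6 of 22 vascular genes, 6 of 18 microglia genes, 6 of 11 astrocyte genes, 6 of 16 lens and cornea genes and 2 of 9 red blood cell genes, against 25 of 25 progenitor genes and 62.2% of all genes. Markers of the same cell type went both ways. Rpe65 and Tyr (pigment epithelium), Tie1 and Tek (endothelium), P2ry12 and Trem2 (microglia) and Hbb-bs (red blood cells) had 0 bp of either mark. Of these, Tie1, Tek, P2ry12 and Trem2 were named after their values were seen. Other markers of the same cells had H3K27ac. Rrh (5989 bp) and Pmel (1485 bp) of pigment epithelium and Cd68 (2047 bp) of microglia were acetylated only. Kdr (5925 bp and 819 bp) and Cldn5 (3650 bp and 4214 bp) of endothelium carried both marks. So did Spi1 (1404 bp and 4362 bp) of microglia and Klf1 (1260 bp and 5156 bp) of red blood cells. Best1 (1938 bp), Pecam1 (1517 bp), Cdh5 (1236 bp) and Cx3cr1 (328 bp), of the first 3 cell types, had H3K27ac only beyond 1 kb from their ends. Rlbp1, a pigment epithelium gene with H3K27ac, is also on the Müller glia list. The part of such cells in the counts of the other lists was not tested.

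Neighbouring genes tended to be in the same state. The next gene along the chromosome had the same state for 58.9% of acetylated-only, 26.0% of trimethylated-only, 28.9% of both and 60.6% of neither genes, beside 43.5%, 10.6%, 18.7% and 27.2% of all genes; neighbours can share a peak. The longest acetylated-only run was 23 genes, Zfp968 to Gm14326 on chromosome 2, which are near-identical zinc finger copies. Next were 22 genes from Gle1 to Cstad on chromosome 2 and the histone runs of 19 and 18 genes on chromosome 13. The longest trimethylated-only runs were 12 genes from Calcoco2 to Hoxb1 and 12 genes of the Hoxa cluster that ended at Evx1. For both marks, the longest run was 21 genes from Taf7 to Pcdhgc4 in the protocadherin gamma cluster, followed by 14 interferon-like genes around Ifnz. The longest unmarked run held 192 genes, Olfr1034 to Olfr1274 on chromosome 2, over chr2:86046444-90401674.

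Open chromatin in the sorted cells was frequent at genes with H3K27ac, rarer at trimethylated-only genes and rarest at unmarked genes in each library. An ATAC peak within 1 kb of a gene end was found at 91.8% of acetylated-only genes in control replicate 1 and 97.6% in replicate 2. For genes with both marks the shares were 77.3% and 98.5%, for trimethylated-only genes 14.8% and 56.2%, and for unmarked genes 2.63% and 11.1%, beside 56.7% and 69.9% of all genes. The libraries differed widely in their lists, with 39636 peaks over 11.6 Mb in replicate 1 and 108569 over 59.8 Mb in replicate 2, and the order of acetylated-only and both genes differed between them. All 25 progenitor genes had an ATAC peak in each library. Of the 80 ganglion, amacrine, horizontal and bipolar genes, 35 had one in replicate 1 and 75 in replicate 2, and of the 39 Hox genes 6 and 31. Of the 61 genes of other territories, 16 and 54 had one. Pou4f2 and Shh had a peak in replicate 2 alone. The ATAC cells came from another age and from culture, so an ATAC value and a histone state of a gene do not describe the same cells.

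**Figure D5:**
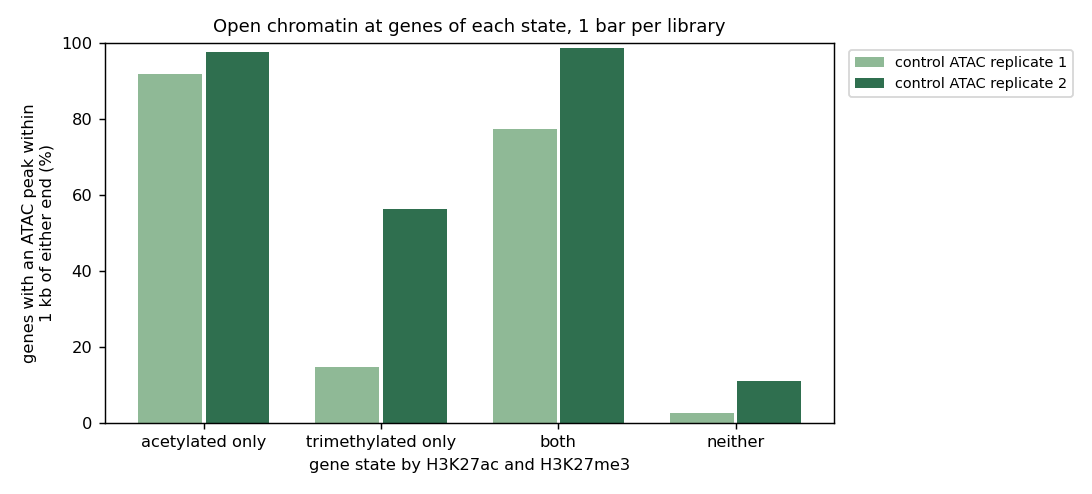
Bars give the share of genes of each state with an ATAC peak within 1 kb of either end, in percent, with 1 bar for each of the 2 control ATAC libraries. Acetylated-only genes are open in 91.8% and 97.6% of cases, trimethylated-only genes in 14.8% and 56.2%, and unmarked genes in 2.63% and 11.1%.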

How the data were processed

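Peaks were taken from the deposited lists of 2 ChIP-seq and 2 control ATAC-seq libraries; there was 1 library per mark. Each list gives chromosome, start, end and name, and its score column, which per the file headers and values holds no measurement, is 0 throughout the lists the authors deposited. Bowtie2, deepTools, MACS2 and mm10 are named without versions in the submitters' processing notes; no source used here gives the peak threshold, the use of input or the treatment of duplicates. Peak names show that each list was called on 1 library. Depth is unknown, so no precision per peak can be given.

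Gene positions are those of the RefSeq table of GRCm38.p6 (mm10), which gives outermost gene ends. Strand and promoters came from a RefSeq promoter table that matched 16457 genes, outside chromosome 18, from which no sequence was read. Overlaps, covered bases and shares were computed with python 3.11.15, numpy 2.4.6, pandas 2.3.3 and scipy 1.17.1, and the sorting was tested on simulated data. The span of the genome was taken to the last annotated gene or peak end. Exons, introns and UTRs were not assigned.

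The 37 class lists hold 690 entries, which gave 673 list members, 1 of them by an older symbol; 3 entries repeated a gene of their list and 14 were unmatched, 13 of them being on chromosome X. The 60 families were taken by symbol pattern and hold 3787 entries. Members and lists were chosen with earlier results of these data known, and the pooled lists after values were seen. The text names Casz1, the 10 genes with the most covered bases per state, up to 4 members of each list per state in that order (alphabetical for neither), members whose state differs from all but at most 2 of their list, genes at the 10 longest stretches with both marks, and genes of the longest runs. A few genes that this rule took are not reported here. Other list members named in the report (such as Rax, Ezh2, Suz12, Eed and the Notch ligands) were chosen after their values were seen. Genotypes were not compared. Alternatives were other windows (500 bp, 2 kb, 5 kb), the 5′ end alone, gene bodies, peaks of at least 300 bp, at least 200 bp covered, lists trimmed to equal bases, merged peaks and inclusion of chromosome X.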

Additional observations from a re-analysis of the deposited data

Results flagged for a closer look

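Chromosome X was left out of the sorting, and a signal there stands outside the main measurement. It held 22944 H3K27me3 peaks, 24.7% of that list, over 15.9 Mb (9.30% of its span), and 1147 H3K27ac peaks, 1.60% of that list, over 1.00 Mb. On chromosomes 1 to 19 H3K27me3 took 2.91% of the span. Of 966 protein-coding genes on X, 206 were acetylated only, 136 trimethylated only, 226 both and 398 neither. H3K27me3 was at 37.5% of X genes against 29.3% of the others, and H3K27ac at 44.7% against 62.2%. The sex of the animals is not given in the labels, and its part in these values was not tested.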

How the results depend on the processing

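No paired analysis was possible because each mark has 1 library, so no library could be left out either; ATAC values are given for each library. Of 78 values recomputed for the main counts, 59 stayed within 1.5 times the reported count or within its interval. H3K27ac peaks meeting H3K27me3 (8.66%) became 6.39% when at least 50% of the peak had to be covered, 10.0% with peaks of at least 300 bp and 6.58% with the H3K27me3 list trimmed to equal bases; H3K27me3 peaks meeting H3K27ac (8.38%) became 2.74%, 11.4% and 26.2%. Genes with both marks (3855) numbered 2508 when the 5′ end alone counted, among the 16457 genes with a strand, and 7584 with 5 kb windows. Acetylated-only genes (8998) numbered 5066 among the 14162 genes whose end windows meet no other protein-coding gene, an alternative added after seeing the data. For trimethylated-only genes the share with an ATAC peak, 14.8% in replicate 1 and 56.2% in replicate 2, became 11.8% and 50.3% at the 5′ end alone, 19.3% and 63.6% with 2 kb windows, 12.2% and 51.5% with 500 bp windows, 20.3% and 66.9% with peaks of at least 300 bp, and 18.4% and 69.5% with equal bases. The 5′ end and the genes without neighbours are smaller sets by construction. Among the 16457 genes with a strand, 2954 carried both marks by either end, against 2508 by the 5′ end alone. The cause of the shifts was not tested. Of list counts, 447 stayed and 32 moved, and of 96 lists with 5 or more members, 83 (2 kb windows) to 92 (500 bp windows) kept their commonest state. A threshold on the caller's p-value was not run, since the lists hold none, and without depth a missing peak cannot be told apart from one not called.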
